A study of Mus musculus with 17 samples.

Results

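Genes of the mitochondrial oxidative phosphorylation system were examined in livers of C57BL/6 mice, a common inbred strain, after a high-fat diet. Members were chosen by name alone, as symbols beginning with Nduf followed by a, b, c, s or v, with Uqcr, with Cox4 to Cox8 or with Atp5, and the 4 symbols Sdha to Sdhd. The RNA table held 85 such genes of 12334. Of these, 75 encode subunits and 10 are factors that carry the same prefixes: Ndufaf1 to Ndufaf7, Atp5sl, Atp5s and Cox7a2l. In the H3K9ac table, 73 regions centred within 1000 bases of a start site were assigned to 69 such genes, of 13830 regions that close to any gene. Where a gene had several, the region with the highest signal stood for it.

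Mice had received a high-fat diet (HFD, 60% of calories as fat) or a control diet (CD, 18%) for 10 weeks. Sequencing of polyadenylated RNA covered 4 livers per diet, lettered A to D. Acetylation of lysine 9 on histone H3 (H3K9ac), a mark of active promoters, was mapped by chromatin immunoprecipitation in 3 livers per diet, lettered A, C and D for CD, with A, B and D for HFD. The design text gives 4 mice, which as a total would be fewer than 4 livers in each diet require. The sex, age and feeding state of the mice are not given in the labels.

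Oxidative phosphorylation passes electrons from NADH and succinate to oxygen and uses the released energy to make ATP. Complex I (NADH dehydrogenase) and complex II (succinate dehydrogenase) feed electrons to ubiquinone, complex III passes them to cytochrome c, complex IV (cytochrome c oxidase) reduces oxygen, and complex V (ATP synthase) turns the proton gradient into ATP. The genes described here lie in the nucleus. Other subunits are encoded by mitochondrial DNA, and 0 of those were in the RNA table. A further 3 subunits in that table have names that the patterns do not take. Hepatocytes are rich in mitochondria and rely on this system for gluconeogenesis, urea synthesis and the oxidation of fatty acids.

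The promoters were compared for short sequence features, since nuclear respiratory genes are known for binding sites of NRF1, of the ETS factor GABPA and of YY1. RefSeq gave a promoter, from 250 bases before to 50 bases after the start site, for 72 of the 85 genes, on GRCm38.p6, which has the coordinates of mm10. The NRF1 letters GCGCATGC, on either strand, were in 12 of the 72 (16.7%), against 2.71% of all 32851 RefSeq promoters and 5.45% of 9864 promoters of genes in the RNA table. Where a gene had several promoters, a member was given the one nearest to its deposited 5′ end. The other RNA-table genes were given the first listed. The full NRF1 site reads nearly the same on both strands, so one site can give a match on each strand 2 bases apart. The following 4 promoters hold these letters within 100 bases before the start site. Each is shown 5′ to 3′ on the gene's strand up to the base before the start site, with the NRF1 letters in capitals. Every pattern was searched on both strands, so the capitals can show its reverse complement, and a promoter can hold several patterns.
Sdhb, chr4:140961171-140961270, plus strand: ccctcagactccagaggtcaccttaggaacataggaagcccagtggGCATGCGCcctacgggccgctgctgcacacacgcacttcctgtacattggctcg
Atp5k, chr5:108434400-108434499, minus strand: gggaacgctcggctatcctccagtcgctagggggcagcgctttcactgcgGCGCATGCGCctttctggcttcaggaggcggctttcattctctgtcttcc
Atp5g2, chr15:102671048-102671147, minus strand: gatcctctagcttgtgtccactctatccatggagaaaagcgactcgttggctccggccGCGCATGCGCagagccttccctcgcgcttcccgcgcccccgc
Ndufa11, chr17:56717662-56717761, plus strand: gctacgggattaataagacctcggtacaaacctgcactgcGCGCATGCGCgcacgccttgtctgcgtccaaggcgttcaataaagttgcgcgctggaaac
In Atp5k, Atp5g2 and Ndufa11 the matches on both strands join into 1 palindrome. Sdhb, the iron-sulphur subunit of complex II, has a match on 1 strand only.

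The ETS letters CCGGAAG were in 16 of the 72 promoters (22.2%), against 8.86% of all RefSeq promoters and 18.3% of those of RNA-table genes. The 60 bases before the start site of 4 members with such a match are shown next, with the ETS letters in capitals.
Cox6b1, chr7:30626115-30626174, minus strand: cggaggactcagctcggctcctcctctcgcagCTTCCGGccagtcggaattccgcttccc
Sdhd, chr9:50603850-50603909, minus strand: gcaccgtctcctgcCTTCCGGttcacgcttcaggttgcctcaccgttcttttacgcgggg
Atp5h, chr11:115419920-115419979, minus strand: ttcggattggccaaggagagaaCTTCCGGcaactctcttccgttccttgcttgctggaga
Ndufs3, chr2:90904722-90904781, minus strand: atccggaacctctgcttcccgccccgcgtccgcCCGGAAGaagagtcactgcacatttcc
Cox6b1 belongs to complex IV, Sdhd is a membrane anchor of complex II, Atp5h is in the stalk of ATP synthase and Ndufs3 is a core subunit of complex I. The SP1 letters GGGCGG were in 44.4% of member promoters, against 63.7% of those of RNA-table genes, and TATAAA in 6.94% against 7.47%. The ERR letters TCAAGGTCA were in 2 promoters (2.78%, against 0.243%), those of Atp5g3 and Sdhd.

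The YY1 letters AAGATGGCG were in 7 of the 72 promoters (9.72%), against 1.4% of all and 3.34% of those of RNA-table genes. In all 7 they lay on the gene's own strand, beginning 23 to 36 bases after the start site. Over all RefSeq promoters, 209 of 477 matches lay after the start site on the gene's strand. The 7 sites are shown within windows of at most 29 bases, with the YY1 letters in capitals.
Atp5j2, chr5:145191500-145191528, minus strand: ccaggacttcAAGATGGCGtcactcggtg
Atp5sl, chr7:25619430-25619458, plus strand: gttacctggcAAGATGGCGgcgcccagag
Ndufa9, chr6:126849097-126849125, minus strand: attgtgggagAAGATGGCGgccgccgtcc
Ndufc1, chr3:51408915-51408943, minus strand: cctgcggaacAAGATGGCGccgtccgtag
Ndufs4, chr13:114388045-114388069, minus strand: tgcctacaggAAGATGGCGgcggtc
Ndufs6, chr13:73328433-73328459, minus strand: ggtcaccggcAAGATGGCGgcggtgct
Ndufs7, chr10:80249463-80249491, plus strand: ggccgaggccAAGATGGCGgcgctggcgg
Of the 7 genes, 5 encode complex I subunits, Atp5j2 encodes a membrane subunit of ATP synthase, and Atp5sl is a complex I assembly factor that RefSeq now lists as Dmac2. At least 1 of the NRF1, ETS and YY1 patterns was present in 30 of the 72 promoters (41.7%), against 12.1% of all and 25% of those of RNA-table genes. These are matches of letters, and no binding was measured.

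RNA levels under CD were compared per gene length, as FPKM, fragments scaled to gene length and library size, which the authors deposited on a log2 scale. Of the 85 genes, 81 lay at or above the level of the median gene (5.33 FPKM), and 64 were among the genes at or above the 90th percentile. The highest was Atp5b, the catalytic beta subunit of ATP synthase, at 568 ± 34.8 FPKM (SD, n = 4). Its partner in the catalytic head, Atp5a1, was at 388 ± 30.2 FPKM, and the third, Atp5c1, which forms the rotating shaft, at 123 ± 9.06 FPKM.

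Levels within a complex were uneven to different degrees, given here as the ratio of the highest to the lowest gene. Such ratios can widen with the number of genes, here 4 in complex II, 8 in III, 10 in IV, 36 in I and 15 in V. Complex II had the narrowest range, from Sdhd at 125 ± 13.2 FPKM to the flavoprotein subunit Sdha at 197 ± 7.2 FPKM, a ratio of 1.57. Complex III spanned a ratio of 2.63, from Uqcrc2 at 112 ± 9.89 to Uqcrq, a small subunit next to cytochrome b, at 295 ± 49.3 FPKM. Without the low isoform Cox7a1, complex IV spanned a ratio of 2.83, from Cox7b at 127 ± 15 to Cox4i1 at 361 ± 45 FPKM. The means of Cox4i1 and Cox6a1 (340 ± 59.5 FPKM), first and second in complex IV, differed by less than their SD.

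Complex I and complex V were wider. Without Ndufa4l2, complex I ran from Ndufa11 at 11.7 ± 2.26 to Ndufa4 at 363 ± 51.4 FPKM, a ratio of 31, with a median of 73 FPKM over 36 genes. Ndufa4, though named for complex I, is now assigned to complex IV, so the ratio of 31 takes its upper end from there. Its level differed from that of Cox4i1 by less than the SD of either. At the lower end, Ndufa11 is 2661 bases long in the deposited table, against a median of 739 in complex I. Complex V ran from Atp5g2 at 30.9 ± 4.36 FPKM to Atp5b, a ratio of 18.4. The factors were lower than most subunits, with a median of 8.63 FPKM and a range from Ndufaf5 at 1.37 ± 0.143 to Cox7a2l, a factor of respiratory supercomplexes, at 46.2 ± 0.596 FPKM.

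**Figure D1:**
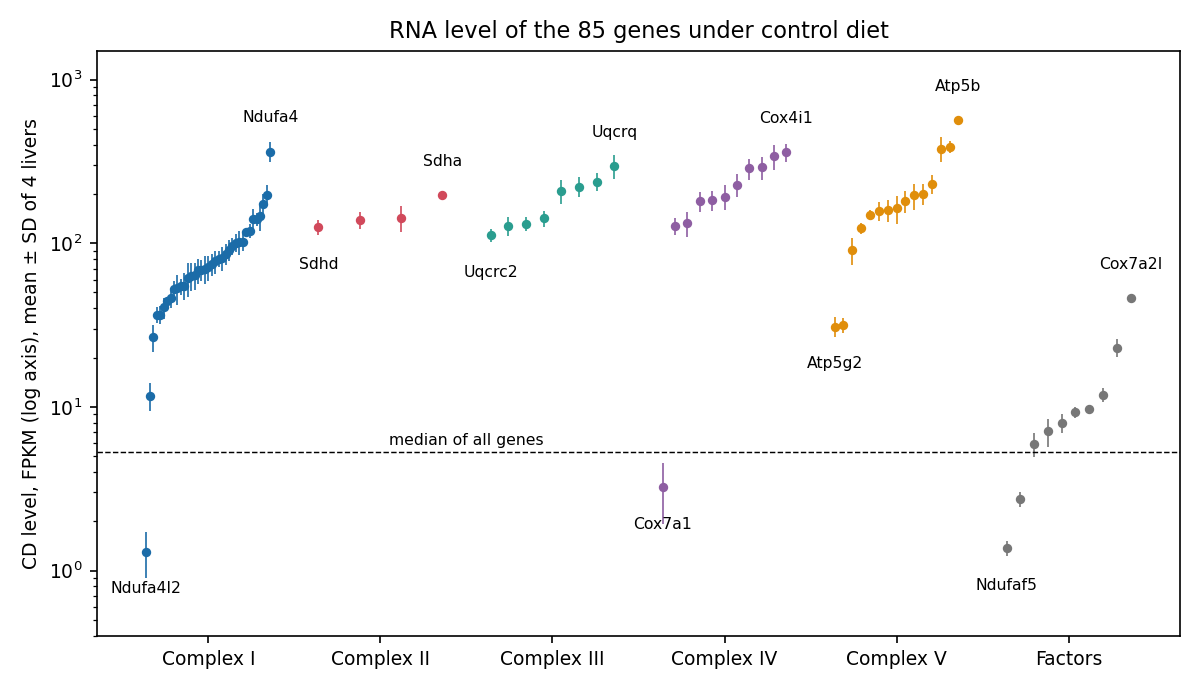
RNA level of each of the 85 genes under control diet, in FPKM on a log axis, sorted within each complex; points are means and bars SD over 4 livers, and the dashed line is the median of all genes (5.33 FPKM). Complexes II and III span narrow ranges, while Ndufa4l2, Cox7a1 and some factors lie below the median gene.

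Several subunits exist as isoforms from separate genes. The c ring of ATP synthase, the rotor that protons turn, is encoded by 3 genes whose mature proteins are the same. Atp5g3 was at 436, 289, 367 and 419 FPKM in CD livers A to D, Atp5g1 at 103, 69.8, 84 and 107, and Atp5g2 at 34.3, 25.3, 29.6 and 34.5. The order Atp5g3, Atp5g1, Atp5g2 held in every liver of both diets, without overlap. Atp5g3 exceeded Atp5g2 by a ratio of 12.2 ± 0.563 under CD and 12.7 ± 0.321 under HFD (SD, n = 4).

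The heart and muscle isoform Cox7a1 was at 2.45, 1.84, 4.62 and 3.97 FPKM in CD livers, and its widely expressed counterpart Cox7a2 at 161, 106, 123 and 138. The ratio of Cox7a2 to Cox7a1 was 46.2 ± 18.6 under CD. Ndufa4l2, known as a hypoxia-responsive relative of Ndufa4, was at 1.7, 0.752, 1.26 and 1.51 FPKM against 414, 311, 328 and 400 for Ndufa4. Cox6a1, Cox6b1 (291 ± 46.8 FPKM) and Cox8a (228 ± 36.6 FPKM) were the only genes of their isoform pairs listed in the RNA table. Of skeletal muscle and of adipocyte markers, 0 of 4 each were in that table.

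Promoter regions of several tissue isoforms carried less H3K9ac than those of their widely expressed counterparts. Promoter regions are given in CPM, counts scaled to library size and not to length. The Cox7a1 region (chr7:30184008-30184537) was at 3.48, 3.33 and 6.53 CPM in CD livers A, C and D, and the Cox7a2 region (chr9:79759198-79760378) at 38.8, 39.7 and 37.3. The stronger of the Cox8b regions was at 2.37 ± 0.279 CPM (SD, n = 3) against 68.1 ± 3.64 for Cox8a, and the Cox6b2 region at 2.08 ± 0.881 against 40.9 ± 1.21 for Cox6b1. Cox4i2, an isoform known from lung, was at 3.13 ± 0.699 CPM. The regions of Cox7a1, Cox8b, Cox6b2 and Cox4i2 were 530, 414, 507 and 819 bases long, and those of Cox7a2, Cox8a and Cox6b1 were longer, at 1181, 1509 and 923 bases. Of these tissue isoforms only Cox7a1 was in the RNA table. The promoters of 2 such pairs are shown from RefSeq, 100 bases up to the base before the start site, with CpG dinucleotides in capitals.
Cox7a2, chr9:79759854-79759953, minus strand: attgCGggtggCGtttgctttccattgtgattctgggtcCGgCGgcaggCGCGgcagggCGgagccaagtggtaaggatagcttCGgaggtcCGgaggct
Cox7a1, chr7:30184071-30184170, plus strand: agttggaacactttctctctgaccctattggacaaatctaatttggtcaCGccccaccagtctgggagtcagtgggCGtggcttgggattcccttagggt
Cox8a, chr19:7217617-7217716, minus strand: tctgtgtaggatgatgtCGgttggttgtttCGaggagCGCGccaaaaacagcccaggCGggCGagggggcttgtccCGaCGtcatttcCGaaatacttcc
Cox8b, chr7:140900447-140900546, minus strand: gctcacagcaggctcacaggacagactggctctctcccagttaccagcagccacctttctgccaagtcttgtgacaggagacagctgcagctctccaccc
These stretches held 9 CpG in Cox7a2 and 2 in Cox7a1, and 9 in Cox8a and 0 in Cox8b. Cox8b is an isoform of heart, muscle and brown fat.

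No member passed the test of RNA between the diets. With edgeR's quasi-likelihood test, adjusted over all genes by the Benjamini-Hochberg method with 0.05 as the threshold, 0 of 85 members were called in either direction, where 7.27% of all genes were called (3.63% higher and 3.64% lower under HFD). At an unadjusted p below 0.05 there was 1 member, against 20.4% of all genes, and DESeq2 called 0. The changes of members were also measured less precisely, with a median standard error of 0.186 log2 units against 0.153 over all genes. The authors' deposited table gave 0 of 85 a false discovery rate below 0.05, with 0.158 as the lowest. These are bulk livers, in which fewer cells of a type and less RNA per cell cannot be told apart.

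The member with the smallest p was Atp5s, a small factor that RefSeq lists as Dmac2l. It was at 2.88, 2.73, 2.34 and 3.02 FPKM in CD livers and 4.1, 3.13, 3.92 and 3.24 in HFD livers. All HFD values lay above all CD values, which held for this member alone and for 14.3% of all genes in either direction. Its log2 change was 0.40 ± 0.15 (SE), with an adjusted p of 0.167 in edgeR.

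Fitted changes were small and mostly above 0. The median log2 change of the 85 was 0.13, against 0.01 over all genes, and 81 of 85 were above 0, against 51.9% of all genes. The medians were 0.11 in complex I (37 genes), 0.14 in complex II (4), 0.12 in complex III (8), 0.14 in complex IV (11), 0.17 in complex V (15) and 0.14 in the factors (10). Here and in the later values by complex, Ndufa4 was kept in complex I, for which it is named. The 4 below 0 were Cox7a1, Ndufa4l2, Ndufs7 and Uqcr11. For 84 of the 85 the 95% interval lay within 1 log2 unit of 0. The exception was Cox7a1, with a log2 change of -0.26 and an interval from -1.22 to 0.71 (SE 0.44).

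**Figure D2:**
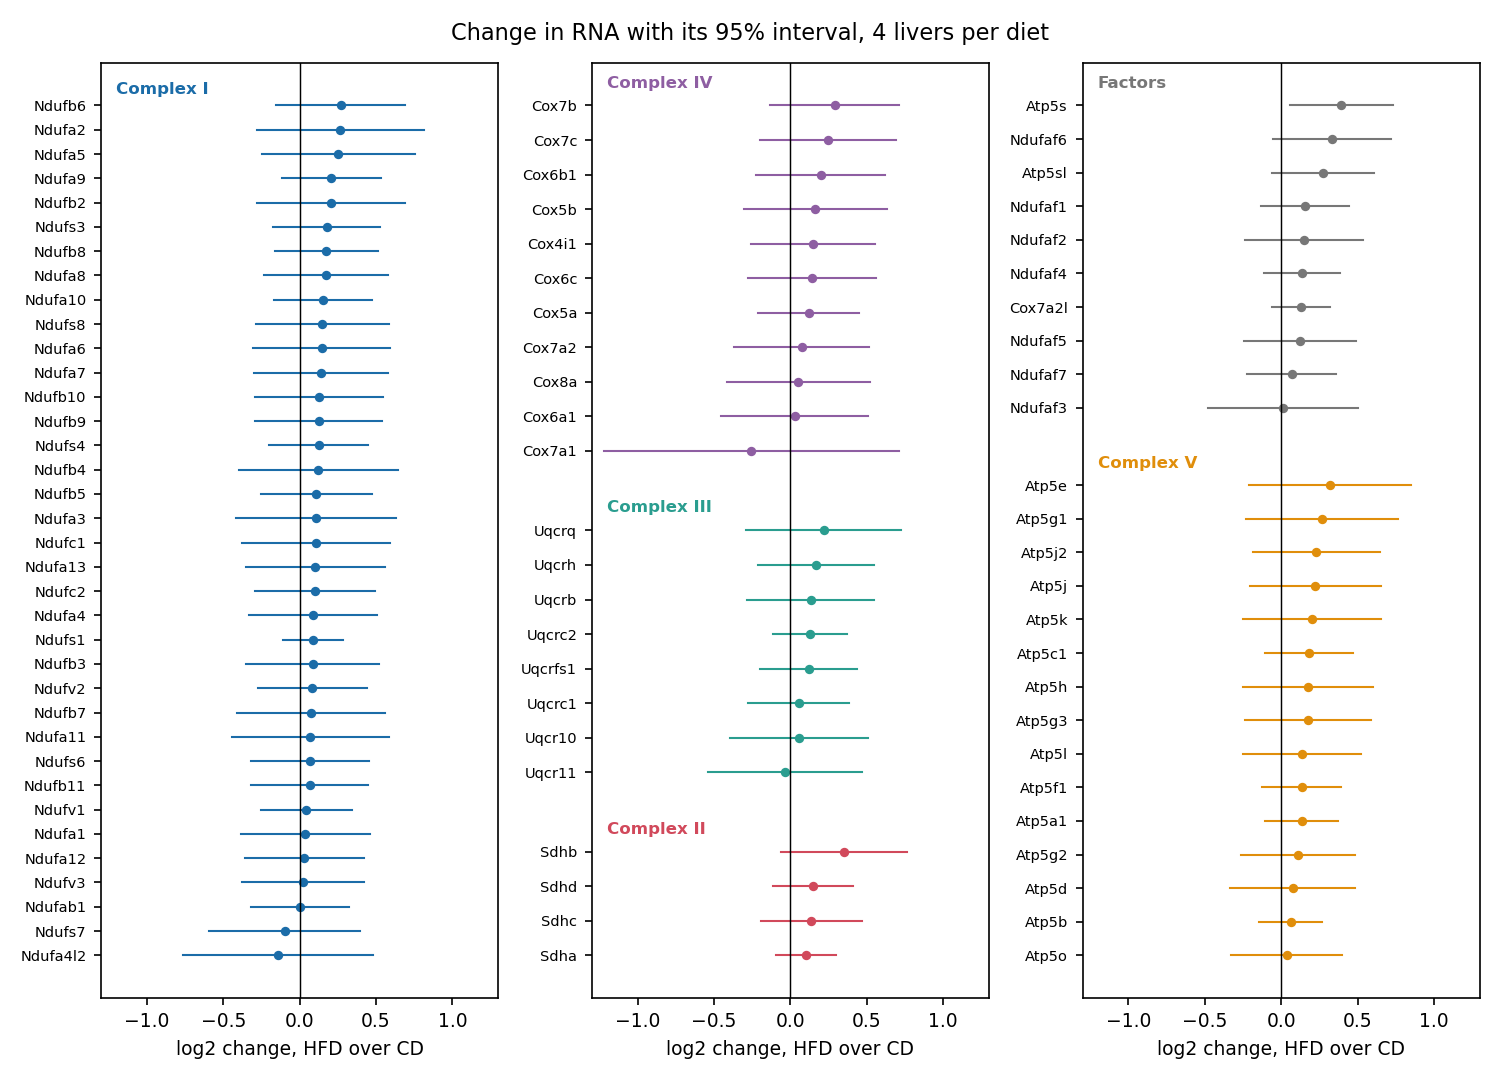
log2 change in RNA, HFD over CD, for 84 of the 85 genes; points are edgeR estimates and lines 95% intervals from 4 livers per diet, grouped by complex. Most points lie just right of 0, and the interval of Atp5s alone leaves out 0 before adjustment.

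In complex II, Sdhb had the smallest p. It was at 167, 109, 137 and 159 FPKM under CD and 247, 186, 152 and 145 under HFD, so that the diets overlapped (log2 change 0.35 ± 0.19, adjusted p = 0.332). Sdha was at 195, 192, 208 and 193 FPKM under CD and 197, 226, 210 and 213 under HFD. It varied little between livers and its diets overlapped too (log2 change 0.10 ± 0.09, adjusted p = 0.594).

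In complex I the smallest p among all genes of the name was that of the assembly factor Ndufaf6 (log2 change 0.33 ± 0.18, adjusted p = 0.327), and among subunits that of Ndufa9 (0.21 ± 0.15, adjusted p = 0.497). Ndufa9, which sits near the quinone site, was at 89.3, 69.9, 76.9 and 86.1 FPKM under CD and 120, 92.7, 82.6 and 76.8 under HFD. Its HFD A value was the highest of the 8 livers, while HFD C and D lay within the CD range.

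In complex III, Uqcrc2 had the smallest p (log2 change 0.13 ± 0.11, adjusted p = 0.604), with 121, 102, 105 and 120 FPKM under CD and 139, 126, 116 and 107 under HFD. In complex IV it was Cox7a2l among all genes of the name (0.13 ± 0.09, adjusted p = 0.451) and Cox7b among subunits (0.29 ± 0.19, adjusted p = 0.462). Cox7b was at 143, 112, 118 and 137 FPKM under CD and 223, 159, 128 and 114 under HFD, where only A and B exceeded the CD range. In complex V, Atp5c1 led the subunits (0.18 ± 0.13, adjusted p = 0.497), and Atp5b was at 602, 520, 568 and 582 FPKM against 606, 619, 584 and 566.

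Livers of one diet differed from each other for these genes, and the complexes mostly deviated the same way within a liver. Averaged over the 85 genes, the deviation of log2 CPM from the CD mean was 0.19, -0.23, -0.07 and 0.12 in CD A to D and 0.57, 0.14, -0.09 and -0.20 in HFD A to D. HFD A was the highest of the 8 livers for 79 of the 85 genes, against 25.2% of all genes. The lowest was CD B for 44 and HFD D for 32. In HFD A the deviation was 0.57 in complex I, 0.41 in II, 0.56 in III, 0.67 in IV, 0.59 in V and 0.47 in the factors. In HFD D it was -0.23, 0.01, -0.26, -0.30, -0.15 and -0.05 in the same order.

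**Figure D3:**
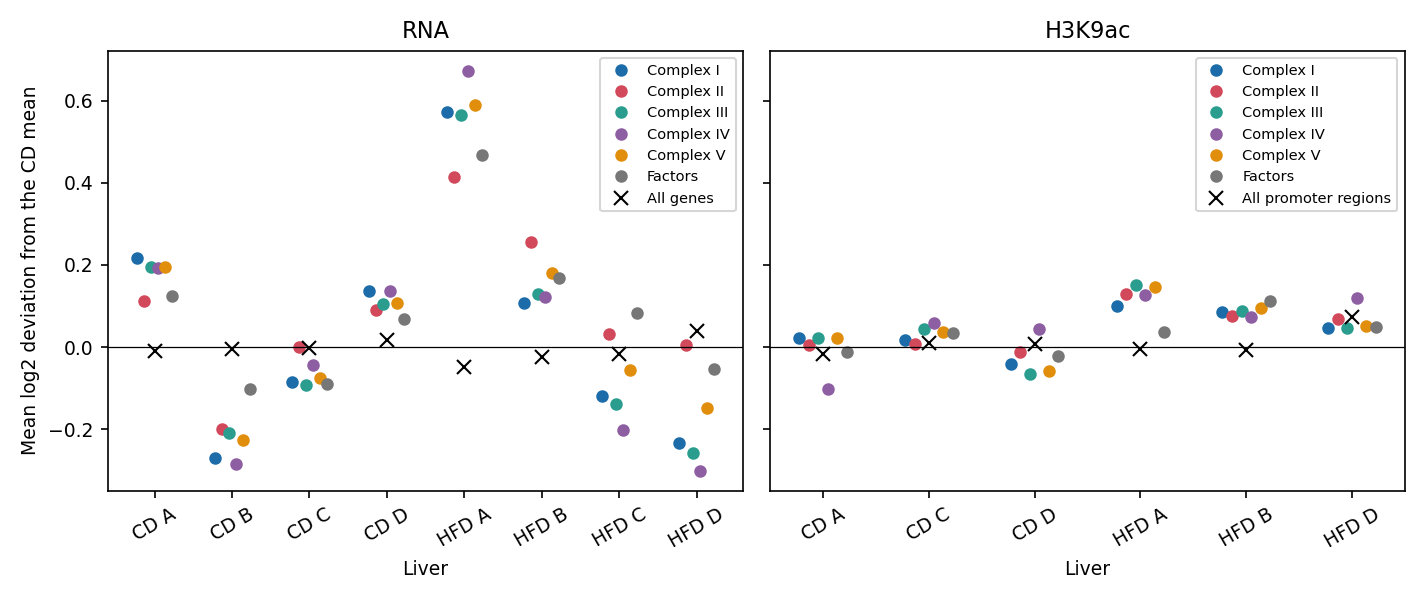
Mean deviation of log2 CPM from the CD mean in each liver, by complex (coloured points) and over all genes or all promoter regions (crosses), for RNA (4 livers per diet) and H3K9ac (3 per diet). In RNA the complexes lie above 0.4 in HFD A and mostly below 0 in HFD C and D, and in H3K9ac all deviations are within about 0.2 of 0.

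The direction of the members' median change rested on HFD A, and its size on several livers. Without HFD A, the median log2 change of the 85 was -0.06 in place of 0.13, and 22 of 85 were above 0. The medians without HFD A were -0.09 in complex I, 0.09 in II, -0.08 in III, -0.09 in IV, -0.02 in V and 0.06 in the factors. Without CD B the median of the 85 was 0.06, that of complex I 0.03, and 62 of 85 were above 0. The median was 0.20 without CD A, 0.19 without HFD C and 0.21 without HFD D. Without HFD A, again 0 members were called, where 8.98% of all genes were, and 1 member had an unadjusted p below 0.05, against 24.2% of all genes.

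Gene length moved with these deviations. The members are short, with a median length of 764 bases in the deposited table against 2931 over all genes, and 52 are at most 1000 bases long. Over all 807 genes of that length, the median deviation of HFD A was 0.45, and over the 52 members it was 0.63. It was 0.24 over all genes above 1000 and up to 2000 bases and 0.50 over the 25 members among them. Above 2000 and up to 4000 bases it was -0.02 over all genes and 0.26 over 8 members, and above 4000 bases, where there were 0 members, it was -0.29 over all genes. HFD D ran the other way, with -0.21 over all genes of at most 1000 bases and 0.12 over those above 4000. The median difference of HFD minus CD was 0.05 over all genes of at most 1000 bases and 0.126 over the members among them. It was 0.035 and 0.136 above 1000 and up to 2000 bases, and 0.005 and 0.114 above 2000 and up to 4000. The part of length in the members' values was not tested.

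The 6 members for which HFD A was not the highest were Ndufs1, Sdha, Atp5b, Ndufaf4, Ndufaf7 and Ndufa4l2. Of these, 4 are longer than 2000 bases. Ndufs1, the largest core subunit of complex I and 2927 bases long, was at 44, 41.3, 46 and 46.4 FPKM under CD and 43.1, 49.3, 49.8 and 46.9 under HFD, and HFD A was thus lower than the other HFD livers. The core subunits Ndufs3, Ndufs7 and Ndufs8 were highest in HFD A.

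**Figure D4:**
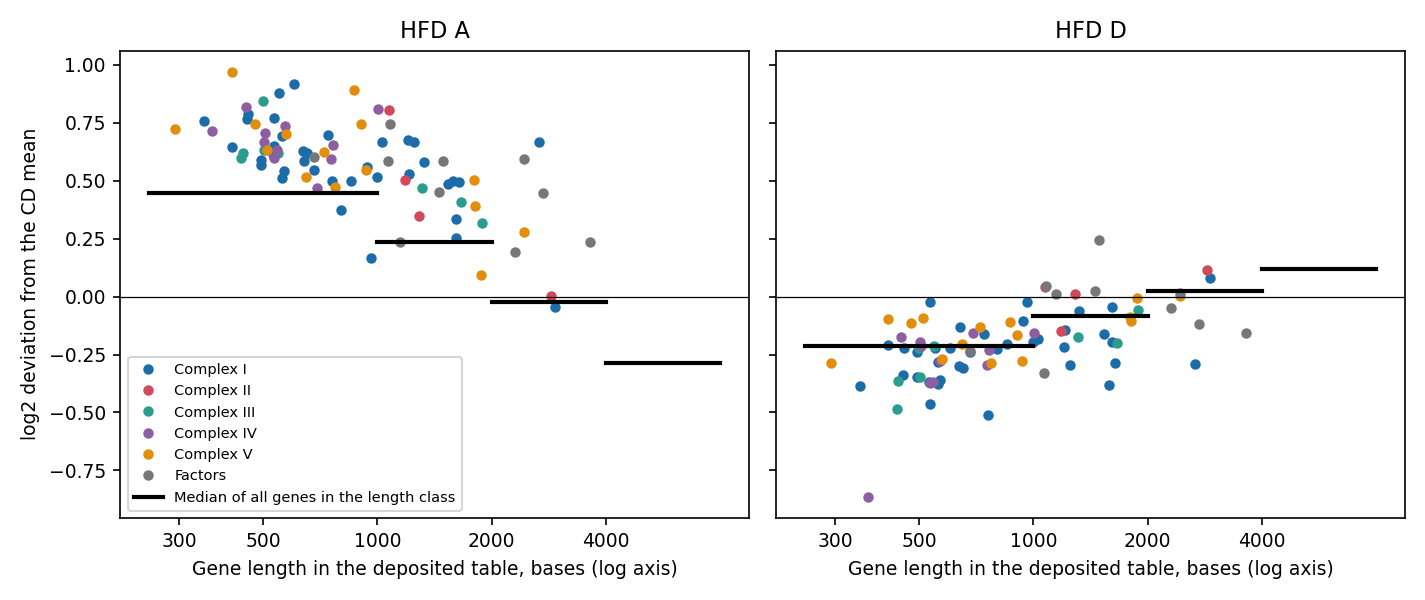
Deviation of log2 CPM from the CD mean in HFD A and HFD D against gene length in bases (log axis); points are the 85 genes by complex, and black lines are medians of all genes in 4 length classes, the last open-ended above 4000 bases. In HFD A points and lines fall with length, from 0.45 for all short genes to -0.29 for the longest class, and in HFD D the lines rise.

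Markers of other liver cells moved with the livers as well. HFD A had the lowest summed level of the 8 sinusoidal endothelium markers (44.7 FPKM, against 52.3 to 71 under CD and up to 86.9 under HFD) and of the 7 of 8 Kupffer cell and macrophage markers measured (49.5 FPKM, against 64.3 to 91.8 and up to 136). Its 6 stellate cell markers summed to 76.9 FPKM, against 91.7 to 111 under CD and 72.2 to 127 under HFD. The 6 hepatocyte markers summed to 63300 FPKM, the highest of the livers (43600 to 53200 under CD, 47400 to 63300 under HFD). Alb made up most of that sum, at 45200 FPKM, and 4 of the 6 lay above the CD mean in HFD A. Cps1 was at 698 FPKM there, against 734 ± 81.8 under CD, and Hnf4a at 151 against 167 ± 17.4. The 5 cholangiocyte markers summed to 30 to 35.3 FPKM under CD and 20 to 34.7 under HFD, with 20 in HFD A, and 1 of them was called lower. Spp1 made up most of these sums, at 31.2 FPKM in HFD D, and 0 of the 5 had a fitted change above 0. The 3 of 5 lymphocyte markers measured summed to 1.85 to 2.7 and 1.96 to 3.56 FPKM. Of the other lists of cell markers, 0 genes were called. Their part in the members' values was not tested.

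H3K9ac at member promoters was above that of most promoters. The median level of the 69 regions was 60.2 CPM, against 34.7 over all 13830 promoter regions, at nearly equal median length (1309 and 1318 bases). Unlike the 69, the 13830 include the weaker regions of genes with several, here and in the shares given below. The start site lay inside the region for 68 of the 69, and 57 were centred downstream of it, at a median distance over the 69 of 209 bases. The highest were Ndufa6 (chr15:82353159-82355175), an accessory subunit of complex I, at 153 ± 9.56 CPM under CD (SD, n = 3), Atp5g3 (chr2:73910383-73911819) at 150 ± 9.82 and Atp5c1 (chr2:10079627-10081109) at 134 ± 3.63. The means of Ndufa6 and Atp5g3 differed by less than their SD. The lowest of the 73 were the second regions of Atp5sl (1.04 ± 0.396 CPM), Ndufv2 (1.86 ± 0.153) and Cox8b (1.86 ± 0.0688).

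The H3K9ac at members did not pass the test either. Of the 69 regions, 0 were called, where 2.73% of all promoter regions were (1.2% higher and 1.53% lower), and 4 had an unadjusted p below 0.05, against 10.4%. DESeq2 called 0, and the authors' deposited table gave 0 of the 73 a false discovery rate below 0.05, with 0.214 as the lowest. The median log2 change was 0.09, against 0.01 over all promoter regions, and 60 of 69 were above 0, against 54.6%. All 3 HFD livers lay above all 3 CD livers for 21 of the 69 (30.4%), against 8.6% of all promoter regions, and 0 members lay wholly below, against 6.2%. With library totals as the scaling these were 19 members (27.5%) against 10.4%, and with DESeq2's size factors 24 (34.8%) against 9.33%.

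The smallest p was that of Sdhb (chr4:140960279-140964173), whose promoter with an NRF1 match is printed above. Its region was at 113, 111 and 122 CPM under CD and 142, 134 and 129 under HFD, so that all HFD livers were higher. The log2 change was 0.23 ± 0.08, with an adjusted p of 0.112 in edgeR. Ndufa5 (chr6:24526879-24527983), an accessory subunit of complex I, was at 36, 33.3 and 34.6 CPM under CD and 43.6, 42.7 and 38 under HFD (log2 change 0.26 ± 0.10, adjusted p = 0.228). The other two with p below 0.05 were Cox7b (0.32 ± 0.15, adjusted p = 0.412) and Atp5sl (0.28 ± 0.12, adjusted p = 0.278).

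Without HFD D, Sdhb (log2 change 0.27 ± 0.07, adjusted p = 0.0185) and Ndufa5 (0.33 ± 0.10, adjusted p = 0.0447) passed the threshold, while 4.27% of all promoter regions did. They passed in no other alternative tried. By complex, the median log2 changes in H3K9ac were 0.08 in I (28 genes), 0.03 in II (3), 0.12 in III (6), 0.08 in IV (13), 0.10 in V (11) and 0.01 in the factors (8). The mean deviation over the 69 was -0.01, 0.03 and -0.03 in CD A, C and D and 0.11, 0.09 and 0.06 in HFD A, B and D. Over all promoter regions it was 0.07 in HFD D and 0.00 and -0.01 in HFD A and B.

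For 19 genes of the RNA table no promoter region carried the gene's own name. For 13 of them a region assigned to a neighbouring gene covered the RefSeq start site, as with Uqcrh, the hinge protein of complex III, under a region assigned to Lrrc41 (248 ± 6.28 CPM under CD and 244 ± 15.9 under HFD). The Atp5j start site lay under a region assigned to Gabpa, the gene of the ETS factor named above, at 214 ± 6.08 CPM under CD and 223 ± 11.2 under HFD. Of the 13 regions 0 were called, 9 had a log2 change above 0, and the lowest adjusted p was 0.396. Acetylation there cannot be divided between the 2 genes. The other 6, Cox4i1, Ndufa2, Ndufa4l2, Ndufb9, Ndufs1 and Sdhc, were not matched to a RefSeq promoter. Whether a region covers their start sites was therefore not checked.

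The levels of both assays went together loosely across genes. Over the 66 members with both values, Pearson's r between log2 FPKM and log2 CPM under CD was 0.47 and Spearman's rho 0.41. Over 10112 genes with a promoter region they were 0.37 and 0.41. Genes are not independent replicates, and neither value is free of gene or region length. Cox7a1 was lowest in both. Ndufaf3, an assembly factor of complex I, had 117 ± 6.27 CPM but 7.09 ± 1.39 FPKM, and Cox7b had 11.7 ± 1.06 CPM and 127 ± 15 FPKM. For the log2 changes with diet, r was 0.17 and rho 0.08 over the 66 members, against 0.48 and 0.34 over the 10112 genes.

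**Figure D5:**
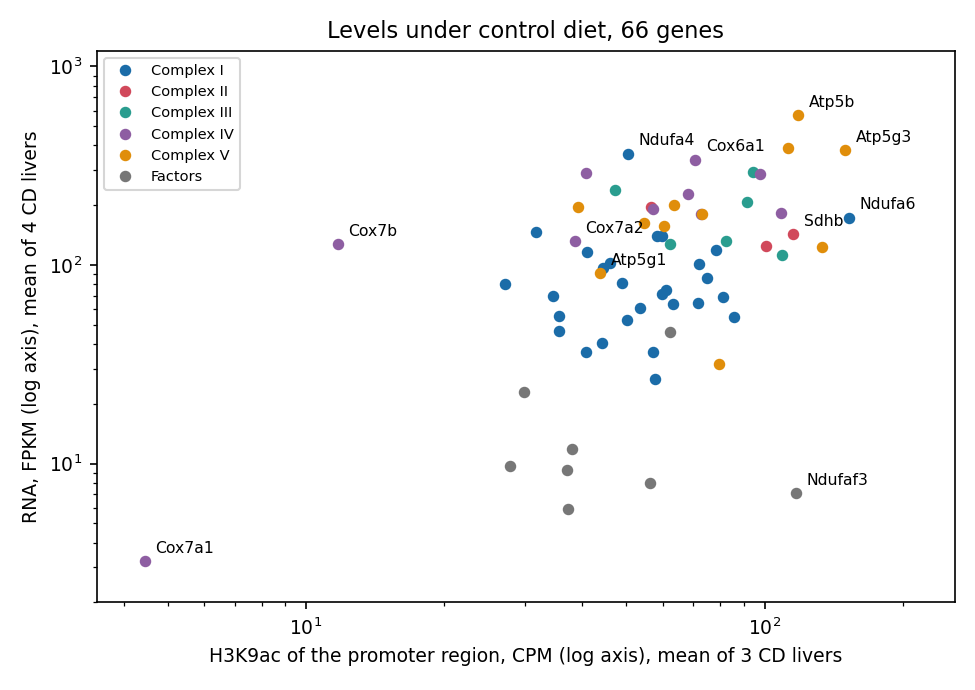
RNA level in FPKM (mean of 4 CD livers) against H3K9ac of the promoter region in CPM (mean of 3 CD livers), both on log axes, for the 66 genes with both values, coloured by complex. Most subunits lie in 1 cloud, Cox7a1 is lowest in both, and Ndufaf3 has high H3K9ac with little RNA.

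Other genes of the pathway were counted in the same edgeR fit, where 7.27% of all genes were called. Assembly factors gave 0 called of 16 for complex I, of 10 for complexes II and III, of 21 for complex IV and of 4 for complex V. The 3 subunits that the name patterns do not take gave 0, as did 14 TCA cycle enzymes and 20 genes of mitochondrial import. Of 14 genes of coenzyme Q synthesis and cytochrome c, 1 was called. This was Coq10b, a coenzyme Q binding protein, at 11.2, 13.5, 6.95 and 5.51 FPKM under CD and 30.6, 32.5, 14.8 and 16.8 under HFD. Every HFD liver was above every CD liver (log2 change 1.36 ± 0.33, adjusted p = 0.0318). The call was lost without any one of CD A, CD C, CD D, HFD A or HFD B, with adjusted p up to 0.112, and with library scaling taken from genes of at most 1000 bases (adjusted p = 0.0871). Over all alternatives the log2 change of Coq10b ranged from 1.16 to 1.59.

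Of 19 regulators of mitochondrial gene expression, 2 were higher and 1 lower. Ppargc1a and Ppargc1b are coactivators known to raise transcription of respiratory genes. Ppargc1a was at 0.936, 1.23, 1.34 and 1.06 FPKM under CD and 2.09, 2.9, 1.54 and 2.47 under HFD (log2 change 0.98 ± 0.19, adjusted p = 0.0119). Ppargc1b was at 0.831, 0.73, 0.982 and 1.42 under CD and 2.43, 1.83, 1.82 and 2.22 under HFD (1.08 ± 0.21, adjusted p = 0.0117). In both genes every HFD liver was above every CD liver, and both calls held without any single liver. With library scaling taken from genes of at most 1000 bases, an alternative chosen after seeing the data, Ppargc1a had a log2 change of 0.96 but an adjusted p of 0.111, while the call of Ppargc1b held (adjusted p = 0.0357). Polrmt, the RNA polymerase of mitochondrial DNA, was at 5.91, 5.76, 5.91 and 6.43 FPKM under CD and 4.93, 4.65, 4.62 and 4.5 under HFD, lower in every HFD liver (-0.36 ± 0.09, adjusted p = 0.0369). Its call held without HFD A (adjusted p = 0.0207) and was lost without any one of the other livers, with adjusted p from 0.0654 to 0.113. It was also lost with the liver letter as a replicate block (adjusted p = 0.0706) and with the scaling from short genes (0.358), and over all alternatives the log2 change of Polrmt ranged from -0.41 to -0.33.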

How the data were processed

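RNA and H3K9ac tables of mouse liver were analysed, and an input library and 2 ATAC-seq libraries were not analysed here. Per the file headers, the authors deposited raw read counts per gene or region, log2 FPKM per gene, gene and region lengths and distances to start sites, and their own log2 fold changes, p-values and false discovery rates. The submitters' processing notes name mm10. Not given in the sources used here are the aligner, the counter, the use of strand and the peak caller, whose regions are 1 set for all libraries.

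Total counts were 31802893 to 37596560 per RNA library and 9255635 to 12149497 per H3K9ac library. Counts were fitted with edgeR 4.0.16 in R 4.3.3 (TMM, filterByExpr, glmQLFit, glmQLFTest, diet as the only term, two-sided), per assay, with Benjamini-Hochberg adjustment over all genes or regions and a threshold of 0.05. All adjusted p-values come from this fit unless the authors' table or an alternative setting is named. DESeq2 1.42.0 was an alternative. CPM were computed from the counts with TMM scaling, and log2 CPM with a prior count of 2. The fit was tested on simulated data. The RNA table omits low genes (lowest mean count 13.9) and had 4999 blank lines, which were left out. No label says which library came from which mouse, or that equal letters mark one mouse, so p-values measure only the spread between these samples. The numbers in the RNA column headings fall in separate ranges for the diets, and what they mark cannot be told apart from diet.

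The members and lists were chosen with earlier results of these data known. Named were, per complex, the smallest p and the highest and lowest CD level, the isoform sets, the 3 highest and 3 lowest H3K9ac regions, and at most 2 called genes per list and direction. Ndufs1, Ndufs3, Ndufs7, Ndufs8, Uqcr11, Ndufa5, Ndufa11, Ndufaf3, Ndufaf4, Ndufaf5, Ndufaf7 and Atp5a1, the regions of Uqcrh and Atp5j, and the promoters printed were chosen after their values were seen. Named pseudogenes exist for Atp5c1, Atp5f1, Atp5k, Atp5l, Cox5b, Cox7c, Ndufa12, Ndufab1 and Uqcrh, whose counts are uncertain. One member is not reported by name here, and its change is left out of the plot of changes by gene.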

Additional observations from a re-analysis of the deposited data

Results flagged for a closer look

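Sdha in CD C, at 208 FPKM, stood apart from the other CD livers, which were at 192 to 195 FPKM. Its gap to the nearest of them was 0.836 of the whole range of the 4 livers, above Dixon's 95% critical value for 4 samples. This was 1 of 60 groups of 4 livers examined, where chance gives about 1 in 20.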

How the results depend on the processing

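Under the alternatives tried (other scalings, DESeq2, no filter or a filter at the median level, other promoter distances, the region nearest to the start site, subunits alone, a replicate block, each library left out, and 1 scaling from genes of at most 1000 bases, chosen after seeing the data), 0 members were called in RNA. In H3K9ac this held except without HFD D, and the range without single libraries was 0 to 2 called higher. Whether equal letters pair livers across diets could not be decided from correlations of deviations over so few pairs. In RNA the same-letter values were 0.295, 0.061, 0.235 and -0.222, and the other values ran from -0.414 to 0.368. In H3K9ac the same-letter values were 0.09 and 0.081, and the other values ran from -0.118 to 0.046. Under the replicate block 0 members were called in either assay, with a median log2 change of 0.109 in RNA and 0.098 in H3K9ac. The adjusted p of Polrmt under that block was 0.0706. Library totals gave a median of 0.08 for members and -0.03 for all genes.

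Over all genes, the calls higher and lower were 716 and 689 with DESeq2, 270 and 273 with the filter at the median level, 195 and 163 with the scaling from short genes, and 224 to 524 and 254 to 583 without single libraries. That scaling also ended the calls of Ppargc1a (adjusted p = 0.111), Polrmt (0.358) and Coq10b (0.0871), with log2 changes of 0.96, -0.37 and 1.27. Over all promoter regions, calls higher were 257 with the replicate block and 85 to 239 without single libraries, and calls lower were 121 with DESeq2 and 76 to 352 without single libraries.

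None of the values that changed sign passed the threshold under the alternative (lowest adjusted p 0.407). Cox6a1 was at -0.026 with library totals, -0.003 with the median filter, -0.011 with the replicate block, and -0.02 with the scaling from short genes, and Cox8a at -0.004 with library totals. Without single libraries the log2 changes ranged from -0.227 to 0.147 for Cox6a1, -0.213 to 0.172 for Cox8a, -0.156 to 0.185 for Cox7a2, -0.347 to 0.019 for Ndufa4l2, -0.331 to 0.093 for Uqcr11, -0.37 to 0.021 for Ndufs7, -0.13 to 0.194 for Ndufa4, -0.074 to 0.342 for Uqcrq, -0.08 to 0.255 for Cox4i1, -0.019 to 0.379 for Atp5g1, -0.064 to 0.203 for Atp5g2, -0.016 to 0.269 for Atp5g3 and -0.025 to 0.317 for Cox6b1. For H3K9ac they ranged from -0.081 to 0.552 for Cox6b2, -0.065 to 0.488 for Cox7a1, -0.381 to 0.011 for Cox8b and -0.038 to 0.105 for Cox7a2. The cause was not tested.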
